A study of Homo sapiens with 39 samples.

Results

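The KLF transcription factors KLF2, KLF3, KLF4, KLF6, KLF7, KLF9, KLF10, KLF11, KLF13 and KLF16 were followed in JJN3 cells, a human multiple myeloma line. These are 10 of the 57773 genes in the deposited count table, and 9 of the 14460 genes that passed the filter on low counts. The set was chosen by listing KLF family genes after the counts of KLF2 and KLF6 were seen to move with GSK-J4 and with time in culture. Values from those contrasts are therefore given as a description, with no p-value for a single factor. Counts past the threshold are set beside the share of all genes, and nothing is read from them. The rule did not use ZnSO4 against DMSO, and that contrast was tested. It shares its DMSO libraries with the GSK-J4 contrast and with the contrasts over time. DMSO libraries entered the choice through the GSK-J4 contrasts and by time, so ZnSO4 tests that use them are not independent of it.

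Messenger RNA was counted in 39 libraries, 3 in each of 13 groups of JJN3 cells grown in RPMI with FCS. Cells were kept in GSK-J4, in ZnSO4 or in DMSO, the vehicle control, for 1, 3, 6 or 24 h, and the remaining group was taken at the start (T0). GSK-J4 inhibits the KDM6 demethylases of histone H3K27, and ZnSO4 is a zinc salt. The sources used here state no doses. The labels' protocol text names 3, 6 and 24 h, while the sample labels also give 1 h. Only 1 cell line was used, and nothing says that the 3 libraries of a group came from separate cultures. Error bars and p-values therefore cover how far these libraries differ among themselves, which may be technical.

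KLF proteins are zinc finger transcription factors that bind CACCC and GC-rich boxes in promoters. KLF2 and KLF4 can activate genes and hold back proliferation, and KLF2 is known in lymphocytes for quiescence and for homing. KLF6 and KLF7 form a pair of related activators. KLF3 represses through the corepressor CtBP, and KLF9, KLF10, KLF11, KLF13 and KLF16 recruit the corepressor SIN3A. KLF10 and KLF11 were first described as early response genes to TGF-beta. KLF9 is induced by glucocorticoids and thyroid hormone. Bulk counts cannot tell a change in all cells from a change in some of them.

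Promoters are shown for KLF2 and KLF6, whose counts led to the choice of the set, and for KLF9, which had the largest log2 fold change against DMSO. They differ in base composition. The 250 bases upstream of each start are shown 5′ to 3′ on the gene's strand, with the GC box GGGCGG or its complement CCGCCC in capitals. The sequences are those of RefSeq on GRCh38.p14: chr19:16324576-16324825 on the plus strand for KLF2, chr10:3785210-3785459 on the minus strand for KLF6 and chr9:70414658-70414907 on the minus strand for KLF9. The reads were aligned to another build, so these coordinates apply to the sequences only.
KLF2: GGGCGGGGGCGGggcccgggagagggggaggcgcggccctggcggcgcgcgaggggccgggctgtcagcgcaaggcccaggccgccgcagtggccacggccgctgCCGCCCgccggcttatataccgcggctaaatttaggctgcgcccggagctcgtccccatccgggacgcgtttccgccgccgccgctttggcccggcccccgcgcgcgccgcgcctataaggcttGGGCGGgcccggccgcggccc
KLF6: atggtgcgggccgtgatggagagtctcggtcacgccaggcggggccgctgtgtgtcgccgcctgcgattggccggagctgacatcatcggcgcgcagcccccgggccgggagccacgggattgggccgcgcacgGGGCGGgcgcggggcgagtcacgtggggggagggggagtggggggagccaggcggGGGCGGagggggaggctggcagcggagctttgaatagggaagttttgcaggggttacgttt
KLF9: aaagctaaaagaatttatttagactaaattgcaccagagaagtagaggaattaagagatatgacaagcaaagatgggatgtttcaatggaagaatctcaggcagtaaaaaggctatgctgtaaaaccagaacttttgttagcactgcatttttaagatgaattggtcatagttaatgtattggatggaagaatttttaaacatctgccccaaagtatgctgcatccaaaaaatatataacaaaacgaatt
KLF2 carries 4 GC boxes in the stretch shown and KLF6 carries 2, whereas KLF9 has 0. Over the full windows, which run from 250 bases before the start to 50 bases after it, GC content is 80.7% for KLF2, 70.7% for KLF6 and 32.7% for KLF9. The median over all 35116 RefSeq windows is 58.7%.

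RefSeq windows were found for 8 of the 10 factors, 12 windows in all, since KLF7 has 4 and KLF11 has 2. GGGCGG was present on either strand in 8 of the 12 windows, against 45% of all windows. CACCC was present in 5, against 59.9% of all windows. TGCGCNC, a form of the metal response element read by the zinc sensor MTF1, was present in 5, against 20%. The other form, TGCACNC, was present in 4, against 12.1%. GAANNTTC (heat shock element) and TGACGTCA (cyclic AMP response element) were each present in 1, against 6.77% and 1.85%. TGATGNAAT (ATF4 type), TGANTCA (AP-1) and TATAAA were present in 0, against 0.991%, 7.71% and 11.5%. All searches covered both strands, and matches to different motifs may overlap. Windows of the same gene are not independent, so these counts do not measure enrichment. By gene, CACCC was found only for KLF7, KLF11 and KLF13, and TGCACNC only for the same genes. The KLF9 window held 0 of these motifs, which says only that these letters are not in those 300 bases.

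Library totals ranged from 4347745 to 10695671 counts, with a median of 6010529. All 9 plasma cell markers (SDC1, CD38, TNFRSF17, XBP1, PRDM1, IRF4, JCHAIN, SLAMF7 and MZB1) were detected. Their sum ran from 10819 to 14442 CPM over the libraries. CPM are counts scaled to the library's total over genes past the filter, multiplied by edgeR's TMM scaling factor. That factor was lower in the 24 h libraries (0.886 in DMSO replicate 1) than in the T0 libraries (1.029 in replicate 1). Of 12 markers of other cell types, 4 passed the filter: EPCAM, KRT18, COL1A1 and COL1A2. Their list summed to 73.2 to 120.4 CPM in 24 h libraries and to 44.6 to 103 CPM earlier. This difference moves with time, and its part in the time results was not tested. The 24 h libraries stood apart from the rest on the first principal component, which held 54.4% of the variance. Levels below are in the same unit.

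Levels between genes can be set side by side only per length of transcript. With the median annotated transcript length, KLF13 was the highest at T0, at 583 ± 65 CPM per kilobase (SD, n = 3). KLF6 followed at 68.0 ± 13.8 and KLF16 at 36.5 ± 9.2 CPM per kilobase. KLF3, KLF10, KLF7, KLF2 and KLF11 lay between 7.88 and 11.7 CPM per kilobase, and KLF9 was at 1.31. With the longest transcript in place of the median, KLF13 stood at 41.8, KLF16 at 14.3, KLF6 at 13.5 and KLF7 at 0.675 CPM per kilobase. The rank of KLF13 at T0 held under both lengths, and the order of KLF6, KLF16 and KLF7 did not. In GSK-J4 at 24 h KLF6 led under both lengths, at 783 and 156 CPM per kilobase.

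**Figure D1:**
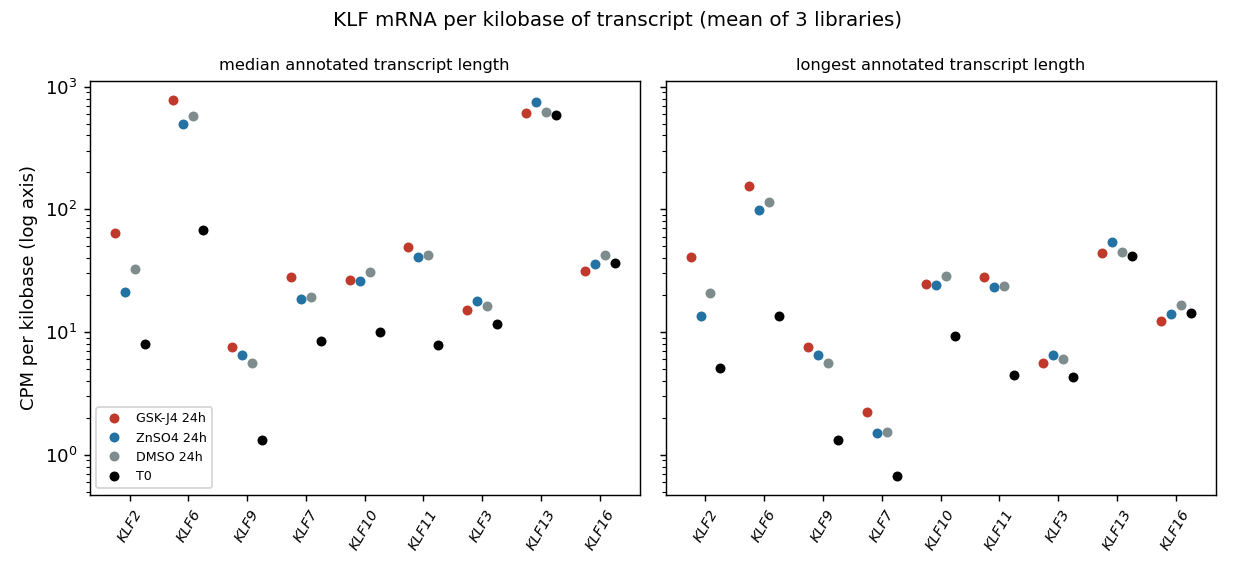
Mean level of 9 KLF mRNAs in CPM per kilobase of transcript (vertical log axis) in GSK-J4, ZnSO4 and DMSO at 24 h and at T0, each the mean of 3 libraries; the left panel divides by the median and the right by the longest annotated transcript. KLF6 and KLF2 lie higher in all 24 h groups than at T0 under both lengths.

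KLF2 was low until 6 h and higher at 24 h, where the 3 arms did not overlap. At 24 h it reached 79.99, 77.3 and 90.8 CPM in GSK-J4 cells, 30.3, 26.4 and 24.8 CPM in ZnSO4 cells and 39.9, 43.3 and 42.6 CPM in DMSO cells, against 10.1, 10.68 and 10.3 CPM at T0. All GSK-J4 libraries lay above all DMSO libraries, and all ZnSO4 libraries lay below them. The log2 fold change was 0.98 ± 0.09 (SE) for GSK-J4 against DMSO and 2.01 ± 0.12 for DMSO at 24 h against T0. GSK-J4 against ZnSO4 gave 1.61 ± 0.11, a 3.05-fold difference.

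Before 24 h KLF2 was no higher on average in either compound than in DMSO. At 1 h it was 7.01, 7.57 and 5.73 CPM in GSK-J4 cells and 7.08, 9.59 and 7.84 CPM in ZnSO4 cells, against 7.86, 11.8 and 9.71 CPM in DMSO cells. The GSK-J4 libraries all lay below the DMSO libraries at 1 h, and the ZnSO4 libraries overlapped them. At 3 h it was 9.06, 8.39 and 8.01 CPM in GSK-J4 cells and 6.60, 6.47 and 5.80 CPM in ZnSO4 cells, against 7.68, 10.2 and 9.65 CPM in DMSO cells. At 6 h it was 7.58, 8.96 and 10.4 CPM in GSK-J4 cells and 7.93, 5.31 and 9.51 CPM in ZnSO4 cells, against 10.0, 9.64 and 10.6 CPM in DMSO cells. Ordered by mean, the groups ran GSK-J4 at 24 h, DMSO at 24 h, ZnSO4 at 24 h and then the other 10 groups. Those 10 had means from 6.29 to 10.4 CPM, and each overlapped the next in order.

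The ZnSO4 test for KLF2 was passed at 3 h and at 24 h, in the direction opposite to GSK-J4 at 24 h. At 24 h KLF2 fell with ZnSO4 by 0.63 on the log2 scale, from edgeR's quasi-likelihood test (SE 0.11, adjusted p = 4.3e-05, lower in 3 of 3 libraries). The 95% interval ran from -0.85 to -0.41. At 3 h the log2 fold change was -0.54 ± 0.18 (edgeR adjusted p = 0.035). The 3 h call was lost without the filter on low counts (adjusted p = 0.14). It was also lost without any single ZnSO4 library or without DMSO replicate 2 or 3, where log2 fold changes ran from -0.57 to -0.44. The 24 h call held in every alternative run. The change at 24 h minus that at 6 h was -0.25 ± 0.21 (edgeR adjusted p = 0.80).

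KLF4, the relative of KLF2 best known from stem cell reprogramming, was hardly counted. It had 38 counts in all over 39 libraries, and 22 libraries held any. The highest library had 0.674 CPM, while 3 counts, taken here as the floor, correspond to 0.280 to 0.751 CPM. No difference in KLF4 was detectable at this depth. The KLF4P1 pseudogene had 7 counts, and reads may be split between these copies.

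**Figure D2:**
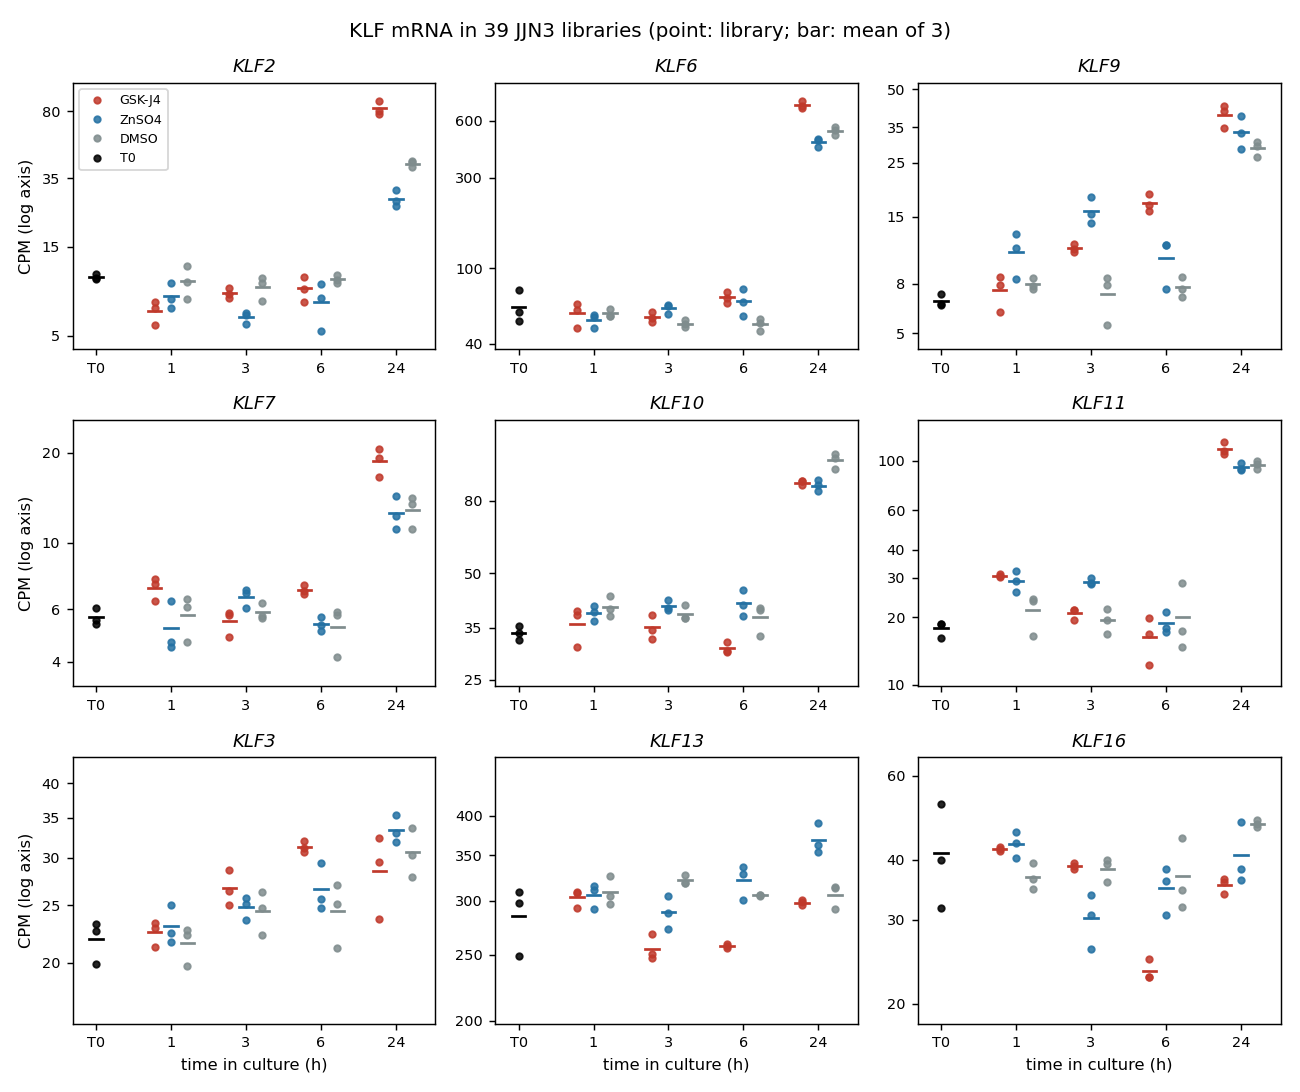
CPM (log axis, a separate scale per panel) of 9 KLF mRNAs at T0 and after 1, 3, 6 and 24 h in GSK-J4, ZnSO4 or DMSO; points are libraries and short bars are means of 3. KLF2, KLF6, KLF9, KLF7, KLF10, KLF11 and, by less, KLF3 are higher at 24 h than at T0 in all arms. KLF2 separates into 3 levels at 24 h.

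KLF6 had the largest difference between 24 h in DMSO and T0 among the 9 tested factors. At 24 h it was at 760.2, 715 and 698 CPM in GSK-J4 cells, 472, 479 and 434 CPM in ZnSO4 cells and 538, 556 and 504 CPM in DMSO cells, against 52.6, 58.9 and 77.1 CPM at T0. The 3 arms did not overlap at 24 h, with GSK-J4 the highest and ZnSO4 the lowest. The level in DMSO at 24 h was 8.61-fold that at T0 (log2 fold change 3.11 ± 0.08), and GSK-J4 against DMSO gave 0.44 ± 0.07. GSK-J4 against ZnSO4 gave 0.65 ± 0.07.

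At 6 h KLF6 stood higher in both compounds than in DMSO. It was at 75.3, 65.4 and 69.9 CPM in GSK-J4 cells and 56.2, 66.8 and 77.9 CPM in ZnSO4 cells, against 46.9, 51.5 and 53.8 CPM in DMSO cells. All compound libraries lay above all DMSO libraries at 6 h. The log2 fold change was 0.47 ± 0.10 with GSK-J4. With ZnSO4 KLF6 rose by 0.41 ± 0.10 at 6 h (edgeR adjusted p = 0.0035). Without ZnSO4 replicate 3 at 6 h this became 0.27 (adjusted p = 0.15). At 3 h the ZnSO4 libraries held 63.4, 57.3 and 64.1 CPM and the GSK-J4 libraries 59.2, 52.1 and 54.7 CPM, against 53.8, 48.8 and 51.0 CPM in DMSO. The 3 h difference for ZnSO4 was 0.26 ± 0.10 (edgeR adjusted p = 0.078). It passed without the filter on low counts (0.28, adjusted p = 0.028) and with only the groups compared (0.0086), and missed the threshold in the other alternatives. At 1 h all 3 arms overlapped, within 48.4 to 64.9 CPM.

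The KLF6 difference with ZnSO4 changed sign between 6 and 24 h. At 24 h KLF6 fell with ZnSO4 by 0.21 on the log2 scale (SE 0.07, edgeR adjusted p = 0.044). That call was lost with DESeq2 (adjusted p = 0.16), with library totals as scaling (0.081) and without 5 of the 6 libraries in turn. The exception was DMSO replicate 3, without which it held. The change between the times was itself tested, and the effect at 24 h was lower than that at 6 h by 0.61 ± 0.12 (log2 difference -0.61, edgeR adjusted p = 0.0033). Without ZnSO4 replicate 3 at 6 h that difference was -0.48 (adjusted p = 0.09).

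KLF7, the close relative of KLF6, was also higher at 24 h, at a lower level. At 24 h KLF7 was at 16.5, 20.6 and 19.2 CPM in GSK-J4 cells, 12.3, 14.4 and 11.1 CPM in ZnSO4 cells and 13.4, 14.1 and 11.1 CPM in DMSO cells, against 5.34, 6.06 and 5.52 CPM at T0. The GSK-J4 libraries lay above all others, and ZnSO4 and DMSO overlapped. GSK-J4 against DMSO gave a log2 fold change of 0.54 ± 0.13, and DMSO at 24 h against T0 gave 1.19 ± 0.16. The ZnSO4 difference at 24 h was -0.03, with a 95% interval from -0.33 to 0.27 (edgeR). Over the 13 group means, log2 levels of KLF6 and KLF7 had a Pearson correlation of 0.97. Those of KLF6 with KLF10, KLF2, KLF11 and KLF9 were 0.96, 0.95, 0.95 and 0.91. The 24 h groups share a high level and weigh heavily in these values. Over the 8 compound effects the correlation of KLF6 with KLF7 was 0.64. With ZnSO4 at 6 h the log2 fold change was 0.02 for KLF7 and 0.41 for KLF6.

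KLF3, the CtBP-binding repressor, kept within a narrow range but was higher at 24 h. DMSO at 24 h against T0 gave a log2 fold change of 0.48 ± 0.10, with all DMSO libraries above all T0 libraries. Its group means ran from 21.6 to 33.4 CPM, a 1.55-fold span. At 6 h it was at 32.1, 30.7 and 31.1 CPM in GSK-J4 cells and 24.7, 29.4 and 25.6 CPM in ZnSO4 cells, against 25.1, 27.03 and 21.2 CPM in DMSO cells. The GSK-J4 libraries lay above the DMSO libraries, at a log2 fold change of 0.36 ± 0.11. At 24 h the arms overlapped. KLF3-AS1, which overlaps KLF3 on the opposite strand, had 0.975% as many counts, and the sources used here do not state whether counting was stranded.

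KLF9 stood higher in both compounds than in DMSO at 3 h. At 3 h it was at 11.1, 11.6 and 10.8 CPM in GSK-J4 cells and 14.2, 15.4 and 18.2 CPM in ZnSO4 cells, against 8.45, 7.91 and 5.39 CPM in DMSO cells. At 6 h it was at 18.6, 15.8 and 16.7 CPM in GSK-J4 cells and 7.58, 11.5 and 11.5 CPM in ZnSO4 cells, against 7.06, 7.58 and 8.55 CPM in DMSO cells. At 3 h the arms were fully separated with ZnSO4 the highest. At 6 h GSK-J4 was the highest, and ZnSO4 overlapped DMSO.

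KLF9 rose with ZnSO4 at 3 h by 1.10 ± 0.16 on the log2 scale, 2.15-fold (edgeR adjusted p = 3.4e-07, higher in 3 of 3 libraries). That call held in every alternative run. The ZnSO4 differences at 1, 6 and 24 h were 0.46 ± 0.16, 0.39 ± 0.18 and 0.22 ± 0.12, and none passed the edgeR test. The effect at 6 h minus that at 3 h was -0.71, with a 95% interval from -1.20 to -0.22, and did not pass after adjustment (edgeR adjusted p = 0.14). With GSK-J4 the log2 fold changes at 3, 6 and 24 h were 0.59 ± 0.17, 1.15 ± 0.16 and 0.46 ± 0.11. GSK-J4 against ZnSO4 was -0.51 ± 0.13 at 3 h and 0.76 ± 0.16 at 6 h. At 24 h KLF9 was at 40.6, 34.9 and 42.6 CPM in GSK-J4 cells, 39.02, 33.04 and 28.6 CPM in ZnSO4 cells and 26.5, 30.4 and 29.3 CPM in DMSO cells, against 6.57, 7.25 and 6.51 CPM at T0. All 24 h libraries lay above all T0 libraries.

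KLF13 activates the chemokine gene CCL5 in T cells. DMSO at 24 h against T0 gave a log2 fold change of 0.10 ± 0.06, short of the threshold. With library totals as scaling it was -0.13, past the threshold in the other direction, and without T0 replicate 2 it was past it at 0.16. At 24 h it was at 298, 301 and 295 CPM in GSK-J4 cells, 389.7, 362 and 354 CPM in ZnSO4 cells and 314, 291 and 313 CPM in DMSO cells. ZnSO4 libraries all lay above the rest. KLF13 rose with ZnSO4 at 24 h by 0.27 ± 0.06 (edgeR adjusted p = 0.0006), and the call held in every alternative run. At 3 h it was at 268, 247 and 250.2 CPM in GSK-J4 cells and 305, 287 and 273 CPM in ZnSO4 cells, against 319, 327 and 319 CPM in DMSO cells. Both compound arms lay below DMSO there, by -0.33 ± 0.06 for GSK-J4 and -0.16 ± 0.06 for ZnSO4. The ZnSO4 value at 3 h missed the edgeR test (adjusted p = 0.056) and passed it with RLE factors, library totals, DESeq2 or the compared groups alone, where adjusted p ran from 0.0064 to 0.041. At 6 h it was at 256, 258 and 259 CPM in GSK-J4 cells and 336, 301 and 329 CPM in ZnSO4 cells, against 305, 306 and 305 CPM in DMSO cells. Only the GSK-J4 libraries lay apart from DMSO at 6 h, at -0.25 ± 0.06.

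KLF16, another SIN3A-binding factor, was lower with GSK-J4 from 6 h. At 6 h it was at 22.8, 22.7 and 24.8 CPM in GSK-J4 cells and 38.3, 30.8 and 36.1 CPM in ZnSO4 cells, against 34.7, 31.9 and 44.5 CPM in DMSO cells. At 24 h it was at 36.5, 35.97 and 33.9 CPM in GSK-J4 cells and 48.0, 38.3 and 36.4 CPM in ZnSO4 cells, against 47.7, 46.8 and 48.5 CPM in DMSO cells. GSK-J4 lay below DMSO at both times, with log2 fold changes of -0.67 ± 0.12 and -0.43 ± 0.11. ZnSO4 overlapped DMSO at both.

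The ZnSO4 effect on KLF16 differed between 1 and 3 h. At 1 h KLF16 was at 42.1, 42.7 and 41.8 CPM in GSK-J4 cells and 45.9, 40.3 and 43.3 CPM in ZnSO4 cells, against 36.5, 39.5 and 34.7 CPM in DMSO cells. At 3 h it was at 39.4, 38.8 and 38.3 CPM in GSK-J4 cells and 33.8, 26 and 30.7 CPM in ZnSO4 cells, against 39.9, 39.2 and 35.9 CPM in DMSO cells. The ZnSO4 libraries lay above DMSO at 1 h and below it at 3 h. The difference was 0.22 ± 0.11 at 1 h (edgeR adjusted p = 0.74) and -0.37 ± 0.11 at 3 h (edgeR adjusted p = 0.023). The effect at 3 h minus that at 1 h was -0.59 ± 0.16 (edgeR adjusted p = 0.018). The 3 h call was lost without DMSO replicate 1 or 2 or ZnSO4 replicate 2 of that time (adjusted p 0.088 to 0.23). The difference between times was lost without any of those 3 or without DMSO replicate 3 at 1 h (0.052 to 0.11). AC012615.4, which overlaps KLF16 on the opposite strand, had 0.742% as many counts.

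KLF10 was higher at 24 h than at T0, and stood lower in both compounds than in DMSO at 24 h. It was then at 91.0, 88.6 and 90.8 CPM in GSK-J4 cells, 85.3, 88.4 and 91.4 CPM in ZnSO4 cells and 108, 106 and 98.6 CPM in DMSO cells, against 33.8, 35.5 and 32.3 CPM at T0. Both compound arms lay below all DMSO libraries and overlapped each other. KLF10 fell with ZnSO4 by 0.24 (SE 0.07, edgeR adjusted p = 0.021). The call was lost without DMSO replicate 1 or 2 or ZnSO4 replicate 1 or 2 (adjusted p 0.070 to 0.093). GSK-J4 against DMSO gave -0.21 ± 0.07, or -0.12 with library totals as scaling, where it missed the threshold. At 6 h KLF10 was at 29.9, 30.1 and 31.99 CPM in GSK-J4 cells and 37.7, 40.7 and 44.8 CPM in ZnSO4 cells, against 39.3, 33.2 and 39.9 CPM in DMSO cells. GSK-J4 lay below the other arms at 6 h, at -0.30 ± 0.09 against DMSO.

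KLF11 stood higher in both compounds at 1 h, and in ZnSO4 alone at 3 h. At 1 h it was at 31.1, 30.6 and 30.1 CPM in GSK-J4 cells and 28.9, 32.1 and 25.95 CPM in ZnSO4 cells, against 16.6, 24.2 and 23.7 CPM in DMSO cells. At 3 h it was at 21.5, 21.6 and 19.4 CPM in GSK-J4 cells and 28.04, 28.4 and 30 CPM in ZnSO4 cells, against 21.8, 19.5 and 16.8 CPM in DMSO cells. ZnSO4 lay above DMSO at both times. With GSK-J4 the 1 h difference was 0.52 ± 0.13, short of the threshold, and 0.35 without DMSO replicate 1. The ZnSO4 difference was 0.42 ± 0.13 at 1 h (edgeR adjusted p = 0.19), and 0.25 without DMSO replicate 1 (0.96). KLF11 rose with ZnSO4 at 3 h by 0.56 ± 0.14 (edgeR adjusted p = 0.0026), a call that held in every alternative run. Without the filter on low counts the ZnSO4 difference at 1 h passed too (0.43, adjusted p = 0.045). At 6 h the DMSO libraries were spread over 14.7, 17.4 and 28.3 CPM, and the ZnSO4 libraries held 17.3, 17.9 and 21.1 CPM. The effect at 6 h minus that at 3 h was -0.65 ± 0.20 (edgeR adjusted p = 0.086). It passed with DESeq2 (0.042), without the filter (0.011) and without DMSO replicate 1 at 6 h (0.0097). Without DMSO replicate 3 at 6 h, the library at 28.3 CPM, it was -0.32 (0.58).

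At 24 h KLF11 was at 121, 107 and 110.0 CPM in GSK-J4 cells, 98.1, 90.8 and 91.4 CPM in ZnSO4 cells and 96.8, 92.0 and 99.2 CPM in DMSO cells, against 18.8, 18.7 and 16.2 CPM at T0. ZnSO4 overlapped DMSO, and GSK-J4 lay above both. The log2 fold change was 0.23 ± 0.09 for GSK-J4 against DMSO, and 2.41 ± 0.12 for DMSO at 24 h against T0. The ZnSO4 difference at 24 h was -0.04, with a 95% interval from -0.23 to 0.15 (edgeR).

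Over the set, ZnSO4 changed 0 of the 9 tested factors at 1 h, where 0.678% of all tested genes passed. At an unadjusted p under 0.05 the 1 h count was 3, and with DESeq2 it was 0. At 3 h 4 of 9 passed, with KLF9 and KLF11 higher and KLF2 and KLF16 lower, against 10.8% of all genes. At 6 h 1 of 9 passed, KLF6 higher, against 9.32%. At 24 h 4 of 9 passed, with KLF13 higher and KLF2, KLF6 and KLF10 lower, against 9.56%. The median log2 fold change of the 9 was -0.02, 0.07, 0.08 and -0.04 at 1, 3, 6 and 24 h, and that of all tested genes lay between -0.002 and 0.007. Of the 9, 1 (KLF16) changed its ZnSO4 effect between 1 and 3 h, against 2.77% of all genes. Between 3 and 6 h 0 did, against 2.18%, with 3 at an unadjusted p under 0.05 and 1 with DESeq2. Between 6 and 24 h 1 did, KLF6, against 0.408%.

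With GSK-J4, 0, 2, 6 and 7 of the 9 were past the same threshold at 1, 3, 6 and 24 h, where 0.104%, 2.38% and 20.4% of all tested genes were at 1, 3 and 6 h. At 24 h 15.2% of all tested genes were past it and higher, and 16.8% were past it and lower. At 1 h 2 of the 9 had an unadjusted p under 0.05, and DESeq2 put 1 past the threshold. The 2 at 3 h were KLF9, higher, and KLF13, lower. With 1 library left out at 3 h, only 1 factor was past the threshold in 5 of the 6 runs. The 6 at 6 h were KLF3, KLF6 and KLF9, higher, and KLF10, KLF13 and KLF16, lower. The 7 at 24 h were KLF2, KLF6, KLF7, KLF9 and KLF11, higher, and KLF10 and KLF16, lower. With library totals KLF10 was not past the threshold at 24 h. Leaving out each library in turn gave 4 to 6 factors at 6 h and 5 to 7 at 24 h. The members were chosen with these contrasts in view, so nothing is read from these counts. DMSO at 24 h against T0 put 8 of 9 past the threshold, all higher, beside 63.2% of all genes in either direction and 30.5% higher. KLF16 was among the 8, at 0.23 ± 0.10, although its libraries overlapped. It was at 0.07 without T0 replicate 1 and at 0.41 without T0 replicate 3. It missed the threshold with DESeq2, without the filter, with library totals, with only the groups compared and without any single library other than T0 replicate 3. The median of all genes in that contrast was -0.239 with library totals as scaling and -0.017 with TMM factors, and KLF16 came to 0.01 with library totals. DMSO at 1, 3 and 6 h against T0 put 0 of 9 past the threshold, beside 0.0346%, 0.0968% and 0.0138% of all genes, with 2, 2 and 1 at an unadjusted p under 0.05 and 0 with DESeq2.

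**Figure D3:**
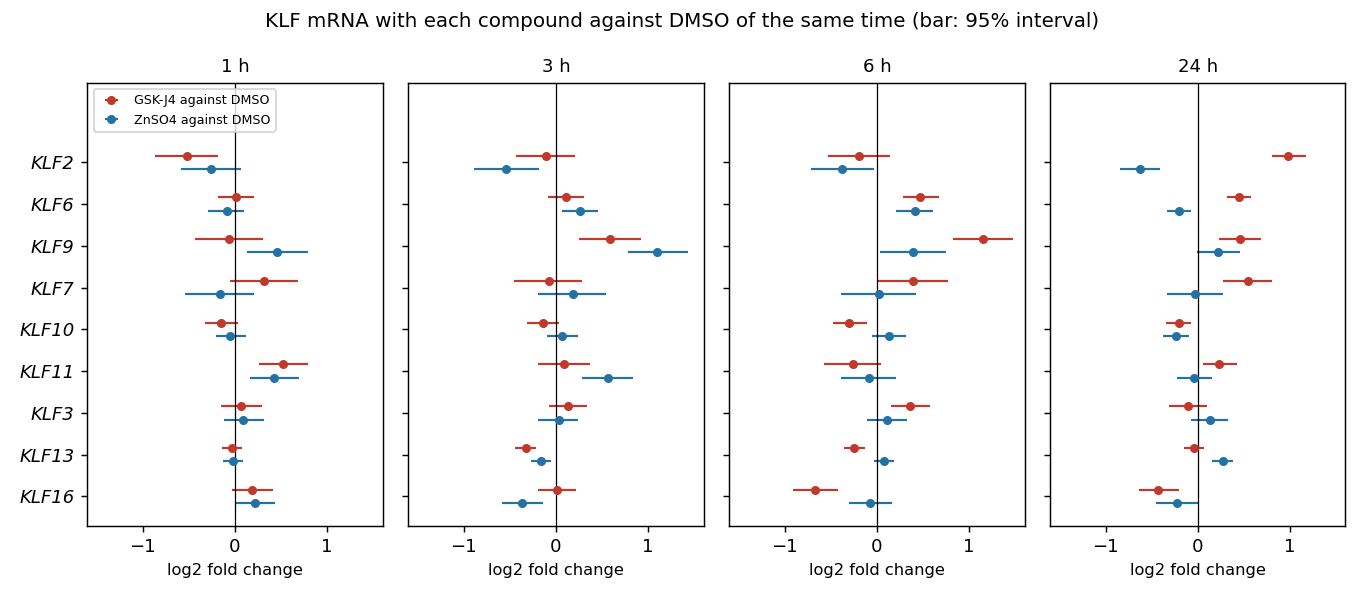
Log2 fold change (horizontal axis) of 9 KLF mRNAs with GSK-J4 or ZnSO4 against DMSO at 1, 3, 6 and 24 h; points are edgeR estimates from 3 libraries a group and bars are 95% intervals. KLF9 lies furthest right at 3 h in ZnSO4 (1.10) and at 6 h in GSK-J4 (1.15), and KLF2 lies on opposite sides at 24 h (0.98 in GSK-J4 and -0.63 in ZnSO4).

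The genes around the KLF factors were read from 4 lists: other KLF and SP factors, cofactors and turnover, upstream regulators, and genes tied to KLF2 or KLF6 in lymphoid or other cells. They hold 63 matched genes, of which 44 were tested. The lists were drawn up with earlier results of these data known. The p-values printed for their genes are therefore a description and no independent support. With GSK-J4 0, 2, 13 and 16 rose and 0, 0, 3 and 8 fell at 1, 3, 6 and 24 h in edgeR's test. At 1 h 3 had an unadjusted p under 0.05, and DESeq2 called 0. With ZnSO4 0, 6, 5 and 1 rose and 1, 4, 3 and 5 fell. The shares of all genes that passed at these times are those given for the factors above. The median log2 fold change of the 44 with GSK-J4 was 0.03, 0.04, 0.14 and 0.07, and that of all genes was 0.001, 0.004, 0.011 and 0.022.

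Among other KLF and SP factors, 3 of 6 tested rose with GSK-J4 at 24 h and 1 fell, KLF5, by 0.32 (SE 0.09). KLF5 is named after its value was seen. SP1, a ubiquitous activator at GC boxes, averaged 108 ± 9.4 CPM in GSK-J4 cells and 72.2 ± 7.7 CPM in DMSO cells (SD, n = 3), a log2 fold change of 0.58 ± 0.07 (edgeR adjusted p = 2.8e-09). KLF12, a CtBP-binding repressor like KLF3, rose by 0.59 ± 0.12 (edgeR adjusted p = 8.8e-05), and SP2 by 0.40 ± 0.10 (edgeR adjusted p = 0.0008). Among cofactors at 24 h in GSK-J4, the SIN3 complex subunit SAP30 fell by 0.37 (SE 0.08, edgeR adjusted p = 0.00024) and the deacetylase HDAC2 by 0.27 (SE 0.06, edgeR adjusted p = 0.00047). The acetyltransferase KAT2B rose by 0.30 ± 0.08 (edgeR adjusted p = 0.0045, or 0.056 without the filter on low counts).

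Among upstream regulators, MEF2C moved in opposite directions with the compounds. MEF2 factors bind and activate the KLF2 promoter downstream of the kinase ERK5 in other cell types. MEF2C averaged 170.5 ± 2.5 CPM in GSK-J4 cells and 127 ± 5.3 CPM in DMSO cells at 24 h, a rise of 0.42 ± 0.06 (edgeR adjusted p = 1.8e-07). In ZnSO4 cells it averaged 109.5 ± 5.4 CPM at 24 h, a fall of 0.21 on the log2 scale (log2 fold change -0.21 ± 0.07, edgeR adjusted p = 0.033). That 24 h call was lost with library totals as scaling (0.063) and without DMSO replicate 2 or 3 or ZnSO4 replicate 1 or 3 (adjusted p 0.055 to 0.15). At 3 h it fell with ZnSO4 by 0.47 (SE 0.06, edgeR adjusted p = 8.1e-08). MEF2A rose with GSK-J4 by 0.36 ± 0.07 at 6 h (edgeR adjusted p = 0.00013) and by 0.44 ± 0.07 at 24 h (1.2e-06). MAPK7, which encodes ERK5, averaged 12.2 ± 2.2 CPM in ZnSO4 cells and 7.36 ± 0.71 CPM in DMSO cells at 6 h, a rise of 0.74 ± 0.18 (edgeR adjusted p = 0.0032). The deacetylase genes HDAC5 and HDAC7, on the same list, rose as well. HDAC5 rose with GSK-J4 at 6 h by 0.33, a call that held without each library in turn. HDAC7 rose with GSK-J4 at 3 h by 0.28 and with ZnSO4 at 6 h by 0.26. Each HDAC7 call was lost in 3 of 6 runs with a library left out.

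KDM3A, an H3K9 demethylase placed upstream of KLF2 and IRF4 in myeloma cells, rose with both compounds at 3 h. It averaged 64.4 ± 0.60 CPM in GSK-J4 cells and 79.9 ± 4.8 CPM in ZnSO4 cells, against 43.5 ± 3.7 CPM in DMSO cells. The log2 fold changes were 0.58 ± 0.07 with GSK-J4 (edgeR adjusted p = 2.7e-08) and 0.89 ± 0.07 with ZnSO4 (edgeR adjusted p = 1.8e-15). With ZnSO4 it was still higher at 6 h, by 0.44 ± 0.08 (edgeR adjusted p = 4.1e-05). FOXO1, which activates KLF2 in lymphocytes, fell with ZnSO4 at 24 h by 0.37 (SE 0.09, edgeR adjusted p = 0.0039). SRF rose with ZnSO4 at 3 h by 0.40 ± 0.07 (edgeR adjusted p = 3.2e-05) and fell at 24 h by 0.30 (SE 0.07, edgeR adjusted p = 0.0041). Without ZnSO4 replicate 2 the SRF value at 24 h was -0.26 (adjusted p = 0.06). SMAD7, a brake on TGF-beta signalling, fell with GSK-J4 at 24 h by 0.51 (SE 0.09, edgeR adjusted p = 1.1e-05).

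Of the genes tied to KLF2 or KLF6, RHOB and CDKN1A rose with GSK-J4 at 24 h and TGFB1 fell. RHOB, a small GTPase gene induced by KLF2 in endothelium, averaged 256 ± 35 CPM in GSK-J4 cells and 132 ± 5.6 CPM in DMSO cells, a log2 fold change of 0.95 ± 0.08 (edgeR adjusted p = 8.9e-15). With ZnSO4 RHOB rose at 3 h by 0.97 ± 0.23 (edgeR adjusted p = 0.0014), or 0.74 without DMSO replicate 1 (adjusted p = 0.053). CDKN1A, the cell cycle inhibitor p21, averaged 21.9 ± 4.4 CPM in GSK-J4 cells and 8.76 ± 0.56 CPM in DMSO cells at 24 h (log2 fold change 1.32 ± 0.17, edgeR adjusted p = 3.3e-09). It also rose with ZnSO4 at 3, 6 and 24 h, by 0.73 ± 0.23, 1.53 ± 0.24 and 0.76 ± 0.19 (edgeR adjusted p = 0.029, 3.9e-06 and 0.004). The CDKN1A call at 3 h was lost without DMSO replicate 1 or 2 or ZnSO4 replicate 1 or 3 (adjusted p 0.080 to 0.24). TGFB1 fell with GSK-J4 by 0.41 at 6 h and by 0.48 at 24 h (SE 0.08 at each, edgeR adjusted p = 2.8e-05 and 7e-07). IRF4, a myeloma survival factor that is also on the plasma cell list, fell with ZnSO4 by 0.60 at 1 h and 0.69 at 3 h (SE 0.06 at each, edgeR adjusted p = 3.5e-11 and 2.2e-14). ITGB7, an integrin gene tied to KLF2 in lymphocytes, fell with ZnSO4 at 24 h by 0.22 (SE 0.05, edgeR adjusted p = 0.00065).

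The genes whose pattern was most like that of KLF2 over the 13 group means of log2 CPM were ARF1 (Pearson correlation 0.984), HMGXB4 (0.981), RNASEH2B (0.979) and SNX18 (0.976). Over the 8 compound minus DMSO fold changes they were ZNF33B (0.989), ZFAS1 (0.978), PIP5K1A (0.976) and STT3A (0.969). For KLF6 they were HLA-DQB1 (0.995), H1-10 (0.994), IRS2 (0.994) and DCTN3 (0.993) over groups, and MINCR (0.972), LINC02019 (0.968), PSME3IP1 (0.967) and GSTCD (0.957) over fold changes. KLF9 was most like KLHL24 (0.981) over groups and CDS1 (0.963) over fold changes. KLF10 was most like MORF4L1P1 (0.992) and TNFRSF12A (0.987), and KLF11 like ALG11 (0.987) and ZNRF3 (0.957), in the same order. With Spearman ranks over groups the closest gene to KLF2 was ARAF (0.951), and that to KLF6 was ARID5B (0.951). The points share their DMSO libraries and the step at 24 h, so these values describe likeness in these 39 libraries only.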

How the data were processed

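Per the labels' protocols, Trizol was used to extract RNA and an NEBNext Ultra RNA kit to build the libraries. Per the submitters' processing notes, reads were aligned with HISAT2 2.1.0 to hg19. How reads were assigned to genes, and whether by strand, is not given in the sources. The authors deposited whole-number counts per gene and library, used here as they stand.

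The members and gene lists were chosen with earlier results of these data known. All 39 libraries were fitted together with edgeR 4.0.16 in R 4.3.3 (quasi-likelihood F-tests with 1 coefficient per group and TMM scaling, after filterByExpr at a minimum count of 10). p-values were adjusted by Benjamini-Hochberg over 14460 genes, with 0.05 as the threshold. The SE is the size of the log2 fold change over the square root of F. KLF4 failed the filter and was not tested. Gene names came from the name table (51996 genes) or GENCODE 29 (342), and 94 of 96 list entries matched. KLF14 and TXNIP did not. Per-kilobase levels used GENCODE 29 transcript lengths.

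All 10 KLF factors are named. Of each pathway list, up to 3 genes per comparison with the smallest p past the threshold could be named, and a selection of these is given. Genes most like a factor needed a symbol and an average log2 CPM of at least 1, and immunoglobulin genes were left out. Replicates were numbered by order within a group. None of 39 replicate pairs agreed within sampling noise (chi-squared per gene 1.20 to 6.71). The pipeline was tested on simulated data. Alternatives were RLE factors, library totals, no filter, DESeq2 1.42.0, only the groups compared, the longest transcript and leaving out each library.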

Additional observations from a re-analysis of the deposited data

Results flagged for a closer look

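For 2 factors the ZnSO4 effect differed between times by a test of the difference itself. For KLF16 the effect at 3 h minus that at 1 h was -0.59 on the log2 scale, since its libraries lay above DMSO at 1 h and below DMSO at 3 h. For KLF6 the effect at 24 h minus that at 6 h was -0.61, since ZnSO4 libraries lay above DMSO at 6 h and below DMSO at 24 h. The KLF16 difference was lost without any of 4 libraries, and the KLF6 difference without ZnSO4 replicate 3 at 6 h, as given above.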

How the results depend on the processing

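No called direction reversed under any alternative run, and KLF13 in DMSO at 24 h against T0 (0.10, not called) passed at -0.13 with library totals and at 0.16 without T0 replicate 2. Most factor-level calls that moved are given beside their results. The counts that moved by over 1.5 times were these. For GSK-J4 at 1 h, 1 factor was past the threshold without the filter, with DESeq2 and with only the groups compared, against 0. For ZnSO4 at 1 h it was 1 without the filter, against 0. For the ZnSO4 effect at 6 h minus 3 h it was 1 with library totals (KLF13, 0.29), without the filter and with DESeq2, against 0. Of the pathway genes, 4 passed for ZnSO4 at 6 h without the filter, against 8, and 6 for GSK-J4 at 3 h with only the groups compared, against 2. Leaving out each library in turn gave 0 to 2 factors for DMSO at 3 h against T0, 0 to 1 for DMSO at 6 h against T0 and 1 to 2 for GSK-J4 at 3 h. For ZnSO4 it gave 2 to 4 factors at 3 h, 0 to 1 at 6 h and 2 to 4 at 24 h, and 0 to 1 for each of the 3 differences between times. For pathway genes it gave 1 to 2 with GSK-J4 at 3 h, 6 to 9 with ZnSO4 at 3 h and 3 to 8 with ZnSO4 at 6 h. The cause of these shifts was not tested. No paired analysis was possible because the columns carry no replicate numbers. Depth limits KLF4 and, with 24 counts in the lowest library of each, KLF2, KLF7 and KLF9.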
